A study of Homo sapiens with 24 samples.

Results

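Matrix metalloproteinases (MMPs) and tissue inhibitors of metalloproteinases (TIMPs) were followed in T/C-28a2 cells, an immortalised line of human chondrocytes. The 10 genes were taken by name: the collagenases MMP1 and MMP13, the stromelysins MMP3 and MMP10, the gelatinases MMP2 and MMP9, the membrane-type enzyme MMP14, and the inhibitors TIMP1, TIMP2 and TIMP3. They are 10 of the 62703 genes in the count files, and 6 of the 10 passed a filter on low counts that kept 16600 genes. RNA-seq had been made from 24 libraries, 4 in each of 6 groups. The groups labelled WT Ctr and WT Sor are unedited, untransfected cells, kept in isotonic medium (300 mOsm) or for 7 days in medium with 100 mM sorbitol (400 mOsm). WNK2 trans Ctr and WNK2 trans Sor are unedited cells that had received a WNK2 expression plasmid 48 hours before the same media. WNK2- Ctr and WNK2- Sor are cells from a clonal line with a CRISPR deletion of exon 2 of WNK2, a kinase of the osmotic stress response. Differences from WT cells were therefore measured in a clonal line, and the control for transfection was cells without any plasmid. The study's methods call the 4 libraries of a group biological replicates, here of 1 cell line.

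MMPs are zinc proteases that cut the extracellular matrix, and most leave the cell as inactive proenzymes. Collagenases open the triple helix of fibrillar collagen such as collagen II of cartilage, gelatinases digest the opened chains, and stromelysins cut proteoglycans and activate other proMMPs. TIMPs block the active site of MMPs, and TIMP2 also holds proMMP2 on MMP14 at the cell surface, where proMMP2 is cut to its active form. Transcript counts say nothing of whether a protease was active.

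Total counts ran from 14153002 to 25664619 per library. The edited and transfected gene was checked first. In isotonic medium WNK2 had 163 to 290 reads in the libraries labelled WNK2 trans Ctr, 1217 to 2568 in those labelled WT Ctr and 440 to 501 in WNK2- Ctr. Replicates 1 and 4 labelled WT Ctr hold the same WNK2 count, 2568, although their totals differ (16135470 and 14153002), and why was not tested. Under sorbitol it had 2237 to 3739 reads in WNK2 trans Sor, 266 to 314 in WT Sor and 322 to 503 in WNK2- Sor. Counting took in all exons, and reads of WNK2- cells can include transcripts without exon 2. All 4 libraries labelled WNK2 trans Ctr held fewer WNK2 reads than any library labelled WT Ctr, which goes against the labels. WT Sor, although unedited, held 303 ± 19.0 normalized WNK2 counts (mean ± SD), beside 359 ± 46.1 in WNK2- Sor and 2520 ± 901 in the libraries labelled WT Ctr. The study's supplement, from its own counts, reports no significant change of WNK2 with sorbitol or transfection. The levels it lists for WT cells in sorbitol and for transfected isotonic cells are not below its WT control, unlike the counts here. No library was moved, and every direction drawn from either isotonic group rests on labels that this gene does not bear out. Directions drawn from WT Sor carry a reservation too, as its WNK2 level lay below that of WNK2- Sor. Because of the isotonic labels, WT Sor and WNK2- Ctr were also compared with the libraries labelled WNK2 trans Ctr. WNK2 trans Sor was also compared with those labelled WT Ctr. Differences between sorbitol responses were not recomputed with the isotonic groups exchanged.

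MMP1 (ENSG00000196611), MMP10 (ENSG00000166670), TIMP1 (ENSG00000102265) and TIMP3 (ENSG00000100234) were listed at 0 in all 24 libraries. Among 12 genes that most cells use, looked up after their values were seen, SDHA and TUBA1B were also listed at 0 throughout, as were 3132 of 19856 protein-coding genes. A listed 0 in these files therefore carries no statement about expression, and nothing can be said of the collagenase MMP1, the stromelysin MMP10 or the inhibitors TIMP1 and TIMP3.

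Of the 6 measured genes, MMP14 is the one with an entry in the RefSeq promoter table, and its promoter is shown because its counts under sorbitol differed between backgrounds. Of all 10 members, 4 have an entry (MMP10, MMP14, TIMP1 and TIMP3). The window on GRCh38.p14, plus strand, chr14:22836335-22836556, holds the 222 bases before the annotated start of MMP14, with a GC content of 56.3%, and capitals mark a GC box.
MMP14 promoter: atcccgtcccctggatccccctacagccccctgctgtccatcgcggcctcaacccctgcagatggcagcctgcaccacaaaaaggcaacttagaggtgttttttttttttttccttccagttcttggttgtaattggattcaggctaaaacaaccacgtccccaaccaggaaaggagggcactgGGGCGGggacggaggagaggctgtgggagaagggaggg
A GC box, an AP-1 motif and a TATA box were searched on both strands. The GC box GGGCGG was found at 1 place, and at 1 or more places in 39.2% of 35116 promoter windows of this length. Those windows are the first 222 bases of each entry and were not set to end at each gene's annotated start, as that of MMP14 was. The AP-1 motif TGANTCA, present in 6.02% of the windows, and the TATA box TATAAA, present in 8.16%, were not in this window.

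Levels of different genes were compared per length, as reads per kilobase of exon scaled to the size of the library (RPKM). In the libraries labelled WT Ctr the inhibitor stood highest, with TIMP2 at 87.0 ± 19.8 RPKM (SD, n = 4, as for every mean here). MMP2 followed at 56.6 ± 7.55 and MMP14 at 34.8 ± 7.49 RPKM. MMP13 at 4.61 ± 0.386, MMP9 at 2.29 ± 0.775 and MMP3 at 0.133 ± 0.0564 RPKM lay far lower. No neighbours in this order had overlapping libraries. In WNK2- Sor the order was different, with TIMP2 at 55.5 ± 3.97, MMP14 at 42.2 ± 6.83 and MMP3 at 41.2 ± 1.48 RPKM, followed by MMP2 at 14.0 ± 0.535, MMP9 at 6.32 ± 1.16 and MMP13 at 1.07 ± 0.193 RPKM. MMP14 and MMP3 overlapped there, with libraries from 35.6 to 50.3 and from 39.7 to 43.1 RPKM. In WNK2 trans Sor the libraries of MMP2 (27.1 to 31.2), MMP14 (18.4 to 38.9), MMP9 (12 to 20.5) and MMP3 (7.20 to 16.8 RPKM) overlapped from each to the next.

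**Figure D1:**
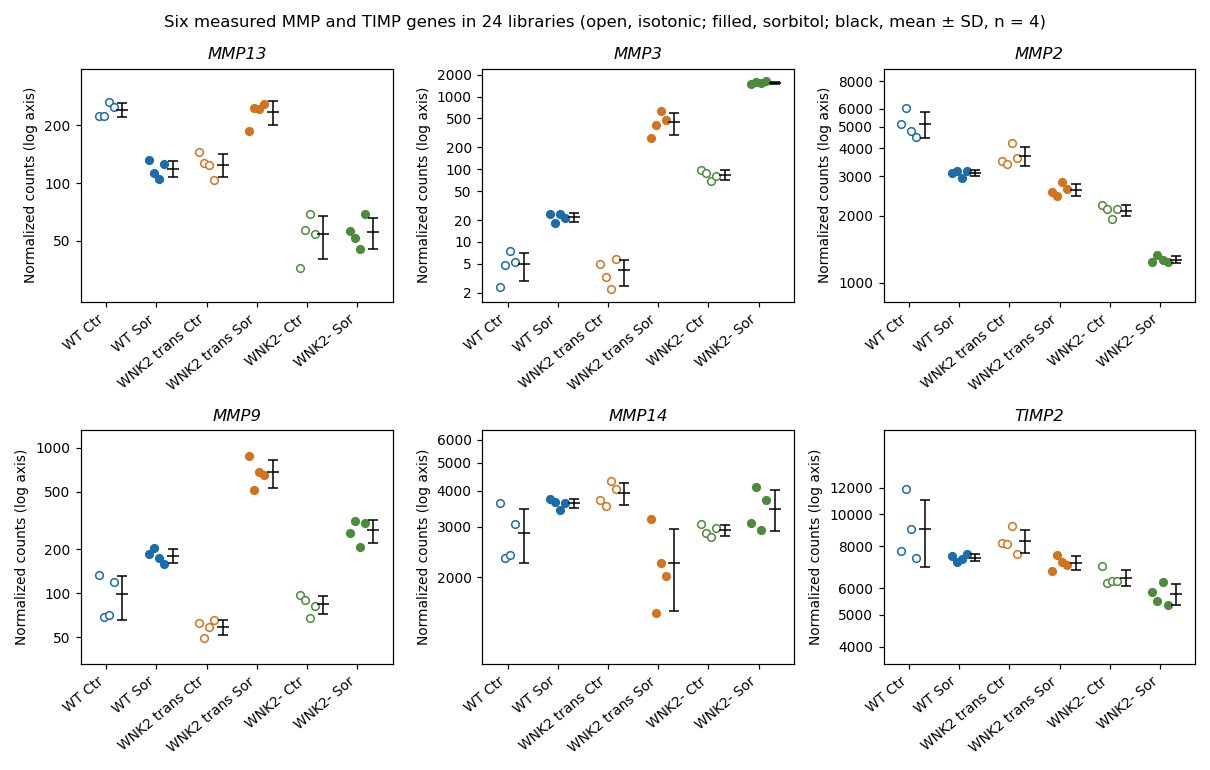
Normalized counts on a log axis for the 6 measured genes in each of the 24 libraries, by group. Each circle is a library, open for isotonic and filled for sorbitol medium, and the black bar is the mean ± SD of 4 libraries. MMP3 runs from 2.25 in a library labelled WNK2 trans Ctr to 1619 in a WNK2- Sor library, while TIMP2 stays between 5343 and 11865.

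Changes were tested by the quasi-likelihood method of edgeR, and p-values were adjusted over all 16600 genes (Benjamini-Hochberg) with a threshold of 0.05. Sorbitol in WT cells raised MMP3 and MMP9 and lowered MMP13 and MMP2, so 4 of the 6 measured genes passed, where 24.1% of all tested genes did (11.4% higher, 12.7% lower). Sorbitol in WNK2- cells raised MMP3 and MMP9 and lowered MMP2, 3 of 6, beside 14.9% of all genes (8.25% higher, 6.64% lower). Sorbitol in WNK2 trans cells raised MMP13, MMP3 and MMP9 and lowered MMP2 and MMP14, 5 of 6, beside 48% of all genes (24.3% higher, 23.7% lower). WNK2- cells differed from WT cells in 4 of 6 genes in isotonic medium, with MMP3 higher and MMP13, MMP2 and TIMP2 lower, beside 42.1% of all genes (20.7% higher, 21.5% lower). In sorbitol they differed in 5 of 6, with MMP9 higher as well, beside 46.3% of all genes (23.7% higher, 22.7% lower). The label WNK2 trans went with lower MMP13, MMP2 and MMP9 than the label WT in isotonic medium, beside 12.5% of all genes (5.57% higher, 6.98% lower). In sorbitol it went with higher MMP13, MMP3 and MMP9 and lower MMP2 and MMP14, beside 31.7% of all genes (16.1% higher, 15.5% lower). Against the other isotonic group, 2 of 6 passed for WT Sor (15.1% of all genes), 6 for WNK2- Ctr (47.7%) and 4 for WNK2 trans Sor (39.2%). The sorbitol response differed from that of WT cells in 2 of 6 genes for WNK2- cells (8.65% of all genes) and in 4 of 6 after transfection (35.5%).

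The libraries of the groups compared did not overlap for 4 of the 6 genes with sorbitol in WT cells (25.7% of all genes), for 3 in WNK2- cells (28.4%) and for all 6 in WNK2 trans cells (34.4%). They did not overlap for 4 genes between WNK2- and WT cells in isotonic medium (36.9%) and 5 in sorbitol (53.9%), for 3 with transfection in isotonic medium (12.3%) and 5 in sorbitol (30.3%), and for 4 between WT Sor and the libraries labelled WNK2 trans Ctr (25.7%). With so few members, and with up to 48% of all genes past the same threshold, these counts are not read as particular to MMPs and TIMPs. The comparisons share libraries, so their values stand side by side and are not independent. Over the 7 comparisons of sorbitol, genotype and transfection, median log2 fold changes of the 6 genes ran from -0.41 in isotonic transfection to 0.46 in transfection under sorbitol, where the medians of all genes were 0.0070 and 0.012.

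**Figure D2:**
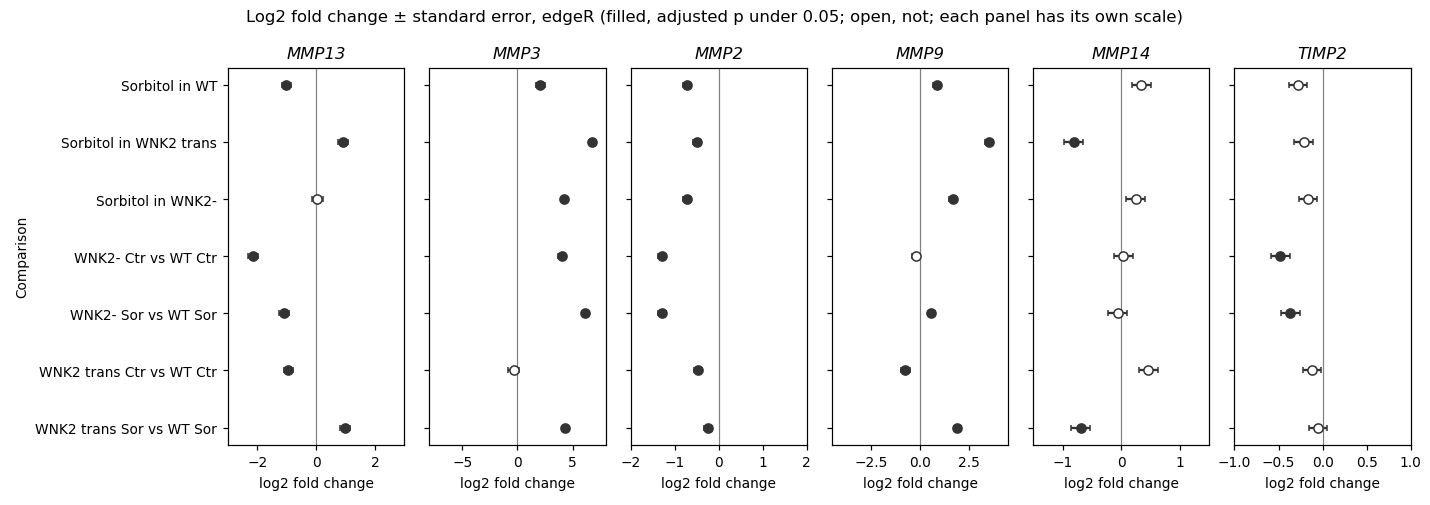
Log2 fold change on the horizontal axis, with bars of 1 standard error, for 6 genes in 7 comparisons, and filled circles for an adjusted p under 0.05. Each panel has its own scale. MMP3 spans -0.34 to 6.78 and TIMP2 -0.48 to -0.053.

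MMP13 (ENSG00000137745, GRCh38 chromosome 11, 102942995 to 102955734, minus strand) is the collagenase with a preference for collagen II. With sorbitol it moved in opposite directions under the labels WT and WNK2 trans. The libraries labelled WT Ctr held 223, 224, 264 and 250 normalized counts, and the WT Sor libraries 132, 113, 106 and 126. All 4 sorbitol libraries lay below all 4 isotonic ones, a change of -1.01 on the log2 scale (standard error 0.16, edgeR adjusted p = 7.08e-05). In the libraries labelled WNK2 trans Ctr it held 146, 127, 124 and 103 normalized counts, and in WNK2 trans Sor 187, 248, 243 and 259. Here every sorbitol library was the higher, by 0.91 on the log2 scale (standard error 0.16, edgeR adjusted p = 5.03e-05). The sorbitol responses of these backgrounds differed by 1.92 (standard error 0.23, edgeR adjusted p = 3.41e-07).

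The WNK2- line had the fewest MMP13 reads of all, with 36.0, 56.5, 69.0 and 54.1 normalized counts in isotonic medium and 56.0, 51.7, 45.4 and 69.2 in sorbitol. The groups overlapped, and the change with sorbitol of 0.040 on the log2 scale (standard error 0.18, edgeR adjusted p = 0.920) did not pass. That response differed from the one in WT cells by 1.05 (standard error 0.24, edgeR adjusted p = 0.00655). Against the libraries labelled WT Ctr, WNK2- Ctr was 4.44-fold lower (log2 fold change -2.15, edgeR adjusted p = 2.09e-10), and against those labelled WNK2 trans Ctr it was 2.31-fold lower (edgeR adjusted p = 2.46e-06). Under sorbitol WNK2- cells were 2.14-fold below WT cells (edgeR adjusted p = 9.02e-06), while transfected cells were 1.97-fold above them (edgeR adjusted p = 4.66e-05). Whether MMP13 fell with sorbitol in WT cells depends on which isotonic libraries serve as control. Against those labelled WNK2 trans Ctr, WT Sor differed by -0.068, which did not pass (edgeR adjusted p = 0.839). Likewise WNK2 trans Sor differed from the libraries labelled WT Ctr by -0.035 (edgeR adjusted p = 0.880).

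MMP3 (ENSG00000149968, GRCh38 chromosome 11, 102835801 to 102843803, minus strand), or stromelysin 1, cuts proteoglycans and activates other proMMPs, and it had the widest range of the measured genes. The libraries labelled WT Ctr held 2, 4, 7 and 4 raw reads, and those labelled WNK2 trans Ctr 4, 4, 2 and 5. The WT Sor libraries held 22, 15, 24 and 21 raw reads, above every isotonic library of WT genotype. The rise was 2.09 on the log2 scale (standard error 0.38, edgeR adjusted p = 0.000263), or 4.26-fold, and 5.40-fold against the libraries labelled WNK2 trans Ctr (edgeR adjusted p = 6.70e-05).

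In WNK2 trans Sor, MMP3 reached 271, 410, 631 and 483 normalized counts. The mean was 449 ± 150, beside 21.9 in WT Sor, a fitted difference of 20.3-fold (log2 fold change 4.34, standard error 0.22, edgeR adjusted p = 2.18e-13), and the libraries did not overlap. Without sorbitol the libraries labelled WNK2 trans Ctr did not differ detectably from those labelled WT Ctr, at 4.06 ± 1.59 and 5.01 ± 2.12 normalized counts (edgeR adjusted p = 0.730). At this depth a library holds a handful of reads. The sorbitol responses under the labels WNK2 trans and WT differed by 4.68 on the log2 scale (standard error 0.63, edgeR adjusted p = 2.31e-06). Set against the libraries labelled WT Ctr, WNK2 trans Sor was higher by 6.44 (edgeR adjusted p = 5.87e-15).

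The WNK2- line had more MMP3 than either isotonic group of WT genotype, with 98.5, 89.4, 68.1 and 81.6 normalized counts in isotonic medium and 1493, 1567, 1518 and 1619 in sorbitol. In isotonic medium it was 16.3-fold above the libraries labelled WT Ctr (log2 fold change 4.02, standard error 0.31, edgeR adjusted p = 1.14e-10) and 20.6-fold above those labelled WNK2 trans Ctr (edgeR adjusted p = 2.02e-11). Under sorbitol it stood above WT Sor by 6.13 on the log2 scale (standard error 0.22, edgeR adjusted p = 4.29e-17). Its own rise with sorbitol was 18.4-fold (log2 fold change 4.20, edgeR adjusted p = 5.02e-14), larger than that of WT cells by 2.11 (standard error 0.51, edgeR adjusted p = 0.00989). With WT Ctr replicate 3 left out, which held 7 of the few reads, this last difference was 1.79 (edgeR adjusted p = 0.0759). MMP3 shares 32 exon bases with the pseudogene WTAPP1 on the other strand, and whether reads were assigned by strand is not given in the sources used here.

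In the deposited files MMP3 and MMP9 hold the same raw counts in 3 of the 4 WNK2- Ctr libraries: 98, 79 and 98 in replicates 2, 3 and 4. In replicate 1 they hold 104 and 102, and in no other group do they agree in any library. The match stands in the files as deposited. Among 881128 pairs of genes with a mean of 60 to 130 counts in this group, 14 agree in 3 of 4 libraries and 0 in all 4, and in the other groups 2 to 9 such pairs agree in 3. Its cause was not tested, and every value of MMP3 and MMP9 that rests on WNK2- Ctr carries this reservation.

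MMP2 (ENSG00000087245, GRCh38 chromosome 16, 55389700 to 55506691, plus strand), gelatinase A, was the most abundant of the measured proteases in the libraries labelled WT Ctr and fell with sorbitol in every background. Those libraries held 5162, 6066, 4796 and 4484 normalized counts, and the WT Sor libraries 3117, 3168, 2961 and 3155. The groups did not overlap, and the fall was 1.65-fold (log2 fold change -0.73, standard error 0.087, edgeR adjusted p = 1.81e-06). In WNK2- cells the isotonic libraries held 2221, 2144, 1930 and 2140 normalized counts and the sorbitol libraries 1240, 1341, 1272 and 1236, a fall of 1.66-fold (log2 fold change -0.73, edgeR adjusted p = 1.45e-06). In WNK2 trans cells they held 3501, 3404, 4210 and 3618, then 2544, 2458, 2824 and 2644 normalized counts, a fall of 1.41-fold (log2 fold change -0.49, edgeR adjusted p = 5.40e-05). The sorbitol response did not differ detectably from that of WT cells either in WNK2- cells, where the difference was -0.0032 on the log2 scale (standard error 0.12, edgeR adjusted p = 0.992), or after transfection, where it was 0.23 (standard error 0.12, edgeR adjusted p = 0.146). With the correction for GC and length the latter came to 0.58 and passed (adjusted p = 0.00217).

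WNK2- cells had less MMP2 than WT cells in both media, 2.43-fold less against the libraries labelled WT Ctr (edgeR adjusted p = 1.86e-11), 1.75-fold less against those labelled WNK2 trans Ctr (edgeR adjusted p = 3.68e-08) and 2.44-fold less under sorbitol (edgeR adjusted p = 1.01e-11). The libraries labelled WNK2 trans Ctr were 1.39-fold below those labelled WT Ctr (edgeR adjusted p = 0.000412). Set against them, WT Sor differed by -0.25 on the log2 scale, which did not pass (edgeR adjusted p = 0.0550). It did with DESeq2 (adjusted p = 0.0432), with the correction for GC and length (adjusted p = 0.0366) and when WT Ctr replicate 2 or 4 or WNK2 trans Sor replicate 1 or 2 was left out (adjusted p = 0.0230, 0.0396, 0.0499 and 0.0480). WNK2 trans Sor was below the libraries labelled WT Ctr (log2 fold change -0.97, edgeR adjusted p = 4.44e-09). The smaller fall with transfection under sorbitol, -0.24 (edgeR adjusted p = 0.0350), was lost under 8 of 33 alternatives and came to -0.024 (adjusted p = 0.878) with a correction for GC and length. It was also lost without WT Sor replicate 1, 2 or 4 or WNK2 trans Sor replicate 2 (adjusted p = 0.0675, 0.0754, 0.0576 and 0.0820). MMP2 shares 174 exon bases with ENSG00000279030 on the same strand, and reads there cannot be told apart.

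MMP9 (ENSG00000100985, GRCh38 chromosome 20, 46008908 to 46016561, plus strand), gelatinase B, rose with sorbitol in all 3 backgrounds. The libraries labelled WT Ctr held 134, 68.7, 71.4 and 119 normalized counts, and WT Sor 186, 205, 175 and 158. All WT Sor libraries were higher, by 0.88 on the log2 scale (standard error 0.20, edgeR adjusted p = 0.00221). Against the libraries labelled WNK2 trans Ctr, with 62.2, 49.2, 58.5 and 65.5 normalized counts, WT Sor was 3.09-fold higher (edgeR adjusted p = 3.92e-06).

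WNK2 trans Sor held 878, 516, 683 and 650 normalized counts of MMP9, the highest of the 6 groups. It was 3.76-fold above WT Sor (edgeR adjusted p = 2.79e-08) and 11.6-fold above the libraries labelled WNK2 trans Ctr (edgeR adjusted p = 6.22e-13). Against those labelled WT Ctr it was 6.95-fold higher (edgeR adjusted p = 6.94e-11). The sorbitol responses under the labels WNK2 trans and WT differed by 2.65 on the log2 scale (standard error 0.29, edgeR adjusted p = 7.71e-08).

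In WNK2- cells MMP9 rose from 96.6, 89.4, 68.1 and 81.6 to 258, 313, 207 and 307 normalized counts, without overlap and 3.23-fold (edgeR adjusted p = 7.02e-07). This rise was larger than that of WT cells by 0.81, which did not pass (standard error 0.28, edgeR adjusted p = 0.0699). It passed with DESeq2 (adjusted p = 0.0371), with the GC and length correction (1.08, adjusted p = 7.55e-05) and when WT Ctr replicate 2 or 3 was left out (adjusted p = 0.0423 and 0.0485). Between the isotonic groups MMP9 was uneven. WNK2- Ctr did not differ detectably from the libraries labelled WT Ctr (-0.22, edgeR adjusted p = 0.405), and lay above those labelled WNK2 trans Ctr by 0.52 (edgeR adjusted p = 0.0484), a call lost when any of 17 of the 24 libraries was left out, with an adjusted p of up to 0.142, and with no filter on low counts (adjusted p = 0.0613). The lower value of the libraries labelled WNK2 trans Ctr against those labelled WT Ctr, -0.74 (edgeR adjusted p = 0.0233), was lost in a fit of these groups alone (adjusted p = 0.136) and without WT Ctr replicate 1 or 4 or WNK2 trans Ctr replicate 2 (adjusted p = 0.0838, 0.0738 and 0.0807). Under sorbitol WNK2- cells were above WT cells by 0.58 on the log2 scale (edgeR adjusted p = 0.0123; 0.0531 without WT Sor replicate 4). MMP9 shares 430 exon bases with the antisense gene SLC12A5-AS1.

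MMP14 (ENSG00000157227, GRCh38 chromosome 14, 22836557 to 22849027, plus strand), the membrane-type protease that activates proMMP2, changed with sorbitol under the label WNK2 trans. The libraries labelled WNK2 trans Ctr held 3723, 3549, 4316 and 4062 normalized counts, and WNK2 trans Sor 3191, 1505, 2235 and 2017. Every sorbitol library was lower, 1.75-fold on the whole (log2 fold change -0.81, standard error 0.16, edgeR adjusted p = 0.000217), with WNK2 trans Sor replicate 1 well above the other sorbitol libraries. WNK2 trans Sor was also 1.62-fold below WT Sor (edgeR adjusted p = 0.00191), whose libraries held 3750, 3645, 3416 and 3636. Against the libraries labelled WT Ctr, with 3626, 2328, 2387 and 3057, the groups overlapped and the difference of -0.35 did not pass (edgeR adjusted p = 0.0870). It passed without WT Ctr replicate 2 (-0.44, adjusted p = 0.0470) or WNK2 trans Sor replicate 1 (-0.58, adjusted p = 0.00217), and with the GC and length correction (-0.23, adjusted p = 0.0147).

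In WT cells MMP14 differed with sorbitol by 0.34 on the log2 scale and in WNK2- cells by 0.25, with overlapping libraries, and neither passed (edgeR adjusted p = 0.125 and 0.348). The first passed without WT Ctr replicate 1 (0.49, adjusted p = 0.0327) or WNK2 trans Sor replicate 1 (0.35, adjusted p = 0.0492), and the second with the GC and length correction (0.26, adjusted p = 0.0106). The response after transfection differed from that in WT cells by -1.15 (standard error 0.23, edgeR adjusted p = 0.000326). This size rests on the isotonic labels: against the other isotonic group the values were -0.12 for WT Sor (edgeR adjusted p = 0.700) and -0.35 for WNK2 trans Sor, neither of which passed. WNK2- cells did not differ detectably from WT cells in isotonic medium (0.034, edgeR adjusted p = 0.887) or in sorbitol (-0.061, edgeR adjusted p = 0.786). They lay below the libraries labelled WNK2 trans Ctr (log2 fold change -0.42, edgeR adjusted p = 0.0320), a call lost without WNK2 trans Ctr replicate 3 or 4 or WNK2- Ctr replicate 2, 3 or 4, with an adjusted p of up to 0.0830. The libraries labelled WNK2 trans Ctr stood above those labelled WT Ctr by 0.46, which did not pass (edgeR adjusted p = 0.0615) and did with DESeq2 (adjusted p = 0.0463), with the replicate number as a block (adjusted p = 0.0470), with the GC and length correction (adjusted p = 0.00295), with no filter on low counts (adjusted p = 0.0455) and without WT Ctr replicate 1 or WNK2 trans Sor replicate 1 or 2 (adjusted p = 0.0167, 0.0175 and 0.0277).

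TIMP2 (ENSG00000035862, GRCh38 chromosome 17, 78852977 to 78925387, minus strand), which blocks MMPs and holds proMMP2 on MMP14, had the smallest SD over the 24 libraries of the 6 measured genes, 0.25 on the log2 scale. The libraries labelled WT Ctr held 7723, 11865, 9032 and 7360 normalized counts, those of WT Sor 7492, 7204, 7312 and 7597. These overlapped, and the difference of -0.28 did not pass (edgeR adjusted p = 0.0531), though it did with DESeq2 (adjusted p = 0.0444), with the GC and length correction (adjusted p = 0.0102) and when WT Ctr replicate 1 or 4 was left out (adjusted p = 0.0215 and 0.0123). Sorbitol did not change it detectably in WNK2- cells (-0.17, edgeR adjusted p = 0.334) or in WNK2 trans cells (-0.22, edgeR adjusted p = 0.0926; 0.0166 without WT Ctr replicate 2), where the groups did not overlap, as was true of 34.4% of all genes in that comparison.

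WNK2- cells held less TIMP2 in both media, with 6967, 6230, 6297 and 6293 normalized counts in isotonic medium and 5857, 5504, 6269 and 5343 in sorbitol. The difference was 1.40-fold against the libraries labelled WT Ctr (edgeR adjusted p = 0.000664) and 1.29-fold against those labelled WNK2 trans Ctr, with 8213, 8149, 9181 and 7610 (edgeR adjusted p = 0.00612). Under sorbitol it was 1.29-fold (edgeR adjusted p = 0.00593), and this call was lost with the GC and length correction (-0.28, adjusted p = 0.0602). TIMP2 did not differ detectably between the labels WNK2 trans and WT in isotonic medium (-0.12, edgeR adjusted p = 0.513) or in sorbitol (-0.053, edgeR adjusted p = 0.738). WNK2 trans Sor, with 6757, 7564, 7189 and 7024, was 1.26-fold below the libraries labelled WT Ctr (edgeR adjusted p = 0.0139), a call lost in a fit of those groups alone (adjusted p = 0.175) and when WT Ctr replicate 2 was left out (adjusted p = 0.0868). TIMP2 shares 565 exon bases with other genes, ENSG00000267601 on the other strand and CEP295NL.

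Other proteases of the family and genes around them were followed in lists, whose counts stand beside 24.1% of all genes past the threshold with sorbitol in WT cells, 48% in WNK2 trans cells and 14.9% in WNK2- cells, and beside 15.1% for WT Sor and 39.2% for WNK2 trans Sor against the other isotonic group. Of 16 further MMP genes 8 were tested. With sorbitol 3 of these 8 rose in WT cells, while 6 fell in WNK2 trans cells and 2 fell in WNK2- cells. Set against the libraries labelled WNK2 trans Ctr in place of WT Ctr, WT Sor had 1 of the 8 lower and the 3 rises did not pass, and against those labelled WT Ctr WNK2 trans Sor had 4 lower. MMP16, a membrane-type enzyme like MMP14, had 919.9 ± 213 normalized counts in the libraries labelled WT Ctr, 2814 ± 96.3 in WT Sor, 2186 ± 546 in those labelled WNK2 trans Ctr, 1211 ± 217 in WNK2 trans Sor, 527 ± 43.8 in WNK2- Ctr and 451 ± 50.2 in WNK2- Sor. Its log2 fold change with sorbitol was 1.61 in WT cells and -0.85 in WNK2 trans cells (edgeR adjusted p = 1.99e-07 and 0.000141). Against the libraries labelled WNK2 trans Ctr the value of WT Sor was 0.36 (edgeR adjusted p = 0.138). Against those labelled WT Ctr the mean of WNK2 trans Sor was the higher, 1211 beside 919.9, and 0 of the 8 tested genes passed as higher. The opposite directions of MMP16 in these backgrounds rest on the isotonic labels. MMP11, or stromelysin 3, fell with sorbitol in WNK2 trans cells (log2 fold change -2.26) and in WNK2- cells (-1.13). RECK, a membrane-anchored inhibitor of MMPs, was lower in WNK2- cells than in WT cells in isotonic medium (log2 fold change -0.71) and under sorbitol (-0.87). TIMP4 and MMP24 were listed at 0 throughout.

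**Figure D3:**
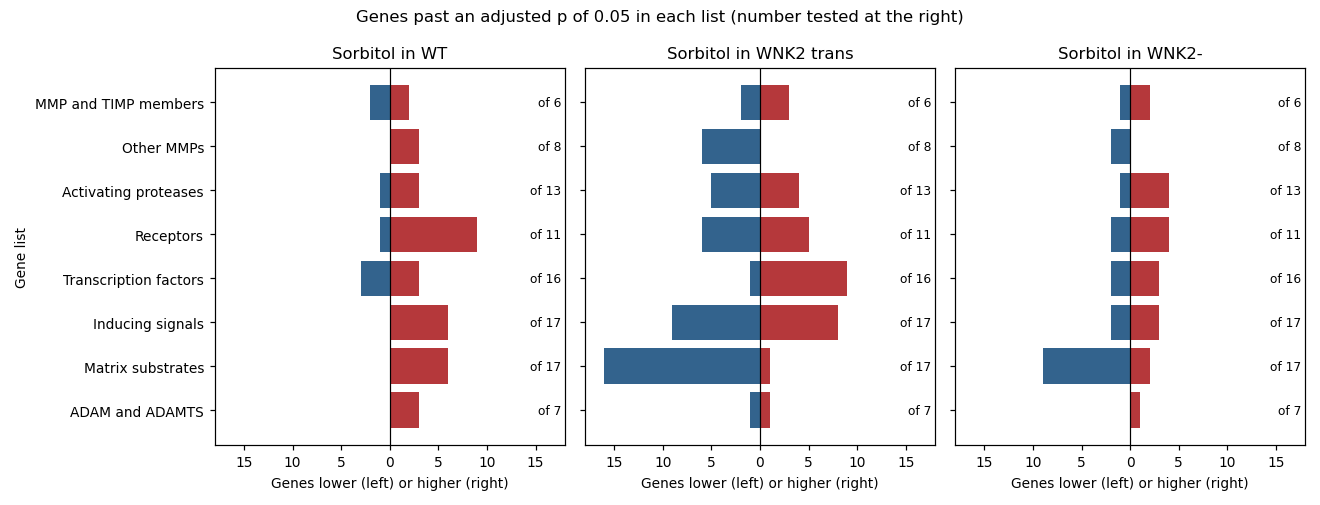
Number of genes past an adjusted p of 0.05 in each list, higher to the right and lower to the left, for sorbitol in WT, WNK2 trans and WNK2- cells, with the number tested beside each bar. Of the 17 tested matrix substrates, 6 were higher in WT cells, 1 higher and 16 lower in WNK2 trans cells, and 2 higher and 9 lower in WNK2- cells.

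Matrix genes on which these proteases act were also followed. Of 21 such genes 17 were tested, and in WT cells sorbitol raised 6 of them, among them VCAN (versican, log2 fold change 1.33) and ACAN (aggrecan, 0.90). Against the libraries labelled WNK2 trans Ctr, WT Sor had 1 of them higher and 5 lower, so the direction in WT cells depends on the isotonic control, and against those labelled WT Ctr WNK2 trans Sor had 1 higher and 12 lower. In WNK2 trans cells 16 fell and 1 rose, with COL9A3 of collagen IX at -3.41 and COL2A1 of collagen II at -2.88. In WNK2- cells 9 fell and 2 rose, with COL1A1 of collagen I at -1.44 and COL9A2 at -1.23. Over the groups COL2A1 ran from 179 ± 14.2 normalized counts in the libraries labelled WNK2 trans Ctr to 6.14 ± 1.55 in WNK2- Ctr. The libraries labelled WT Ctr held 82.6 ± 27.0. The median log2 fold changes of the list were 0.43, -2.03 and -0.81 in WT, WNK2 trans and WNK2- cells, beside 0.035, 0.0064 and 0.0047 over all tested genes. Several of them also serve as markers of chondrocytes and fibroblasts.

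Genes that activate proMMPs or induce MMP transcription were also followed. Of 16 in the activating system 13 were tested, and sorbitol raised 3 and lowered 1 in WT cells, raised 4 and lowered 5 in WNK2 trans cells, and raised 4 and lowered 1 in WNK2- cells. Against the other isotonic group, 2 were higher and 3 lower in WT Sor, and 5 higher and 4 lower in WNK2 trans Sor. The median log2 fold change of this list with sorbitol was 0.14 in WT, -0.27 in WNK2 trans and 0.12 in WNK2- cells. It was -0.12 for WT Sor and -0.027 for WNK2 trans Sor against the other isotonic group. CTSS, the protease cathepsin S, rose by 3.05 in WNK2 trans cells and 1.62 in WNK2- cells. Of 20 inducing signals and their receptors 17 were tested, with 6 higher in WT cells, 8 higher and 9 lower in WNK2 trans cells and 3 higher and 2 lower in WNK2- cells. Against the other isotonic group, 7 were higher and 4 lower in WT Sor, and 9 higher and 4 lower in WNK2 trans Sor. Median log2 fold changes of these signals with sorbitol were 0.27 in WT, -0.45 in WNK2 trans and 0.17 in WNK2- cells. They were 0.18 for WT Sor and 0.47 for WNK2 trans Sor against the other isotonic group. IL1B, the cytokine interleukin 1 beta, had 131 ± 32.4 normalized counts in the libraries labelled WT Ctr, 222 ± 31.9 in WT Sor, 83.0 ± 21.3 in those labelled WNK2 trans Ctr, 1116 ± 175 in WNK2 trans Sor, 706 ± 28.2 in WNK2- Ctr and 2556 ± 54.7 in WNK2- Sor. Its rise with sorbitol was 3.76 in WNK2 trans cells and 1.86 in WNK2- cells on the log2 scale (edgeR adjusted p = 6.07e-15 and 2.07e-09).

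Among 19 transcription factors of MMP genes 16 were tested, and 9 rose and 1 fell with sorbitol in WNK2 trans cells, against 3 and 3 in WT cells and 3 and 2 in WNK2- cells. Against the other isotonic group, WNK2 trans Sor again had 9 higher and 1 lower, and WT Sor had 5 higher and 0 lower. In WNK2 trans cells ETS2 rose by 2.88, FOSL1 by 1.71 and ETS1 by 1.54, and in WT cells FOS rose by 1.54, EPAS1 by 1.12 while ETS2 fell (-0.75). This fall of ETS2 did not pass for WT Sor against the other isotonic group. FOS and FOSL1 are subunits of AP-1, ETS1 and ETS2 are ETS factors, and EPAS1 is a hypoxia-inducible factor. Of 11 receptors of collagen and MMPs, all tested, 9 rose and 1 fell in WT cells, 5 rose and 6 fell in WNK2 trans cells, and 4 rose and 2 fell in WNK2- cells. Against the other isotonic group, WT Sor had 4 higher, and WNK2 trans Sor 4 higher and 4 lower. Median log2 fold changes of the receptors with sorbitol were 0.70 in WT, -0.37 in WNK2 trans and -0.20 in WNK2- cells. They were 0.18 for WT Sor and 0.11 for WNK2 trans Sor against the other isotonic group. ITGA10, an integrin chain that binds collagen, rose by 1.51 in WT, 3.21 in WNK2 trans and 1.59 in WNK2- cells. Of 7 ADAM and ADAMTS proteases, all tested, 3 rose with sorbitol in WT cells and 1 rose in WNK2- cells. In WNK2 trans cells 1 rose and 1 fell. Against the other isotonic group, 3 were higher in WT Sor and 2 in WNK2 trans Sor. Between WNK2- and WT cells 3 were higher and 3 lower in isotonic medium (42.1% of all genes called), and 2 and 2 in sorbitol (46.3%). The aggrecanase gene ADAMTS5 rose by 0.79 in WT cells. It was lower in WNK2- cells than in WT cells in isotonic medium (-2.18) and under sorbitol (-3.40).

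The genes most like each member over the 24 libraries were found among 13072 genes by the root-mean-square difference of centred log2 counts, as a description. HERC5 (0.32) and TRANK1 (0.33) stood nearest to MMP13, whose own SD over the libraries was 0.90, and LINC02582 (0.74) and CCR5AS (0.84) nearest to MMP3, with an SD of 3.06. CCNG2 (0.21) and HFE (0.22) were nearest to MMP2, with an SD of 0.65, and CDCP1 (0.37) and NPAS2 (0.43) to MMP9, with an SD of 1.22. ORAI1 (0.11) and SLC4A2 (0.11) were nearest to MMP14, with an SD of 0.36, and GPATCH1 (0.078) and STT3A (0.081) to TIMP2.

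MMP13 and MMP3 are the tested members of a cluster of 9 MMP genes on GRCh38 chromosome 11, from 102520508 to 102955734. Within 1 Mb of it 11 other genes were tested, with TMEM123 and DCUN1D5 the nearest on either side. Their median log2 fold change was -0.055 for WNK2- Ctr against the libraries labelled WT Ctr, where 1 rose and 3 fell beside 42.1% of all genes called, and 0.062 for sorbitol in WNK2 trans cells, where 1 rose and 4 fell beside 48%. In those comparisons MMP3 changed by 4.02 and 6.78 and MMP13 by -2.15 and 0.91.

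Marker genes of cell types moved with several of these results, and their part in them was not tested. Of 10 chondrocyte markers 7 were tested and SOX9 was listed at 0, and their summed level in counts scaled to library size (CPM) was lowest in WNK2- Ctr, at 22.5 to 25.0 CPM, and WNK2- Sor, at 23.2 to 28 CPM. It was 109 to 156 CPM in WNK2 trans Sor, 70.1 to 86.7 in those labelled WNK2 trans Ctr, 86.0 to 91.9 in WT Sor and 92.2 to 106 in those labelled WT Ctr. HAPLN1, a link protein of the cartilage matrix, made up most of this sum, with 2157 ± 430 normalized counts in WNK2 trans Sor and 851 ± 110 in those labelled WNK2 trans Ctr. By genes, 1 of the 7 rose and 6 fell with sorbitol in WNK2 trans cells (median log2 fold change -2.35), and 4 were lower in WNK2- than in WT cells in isotonic medium (median -1.32). The fibroblast markers (4 of 6 tested, THY1 listed at 0) summed to 925 to 1119 CPM in WNK2- Sor, 2575 to 2937 in WNK2- Ctr, 1067 to 1797 in WNK2 trans Sor, 5252 to 6435 in those labelled WNK2 trans Ctr, 3535 to 3780 in WT Sor and 2707 to 3872 in those labelled WT Ctr. Endothelial markers (4 of 4 tested) ran from 24.3 in WNK2- Ctr to 106 in WNK2 trans Sor, although 3 of the 4 were higher in WNK2- Ctr than in those labelled WT Ctr and 1, PECAM1, was lower (median log2 fold change 0.84). Macrophage markers (2 of 4, CD68 listed at 0) ran from 5.41 in WNK2 trans Sor to 24.1 in WNK2 trans Ctr, and epithelial markers (4 of 4) from a lowest of 608 among libraries labelled WT Ctr to a highest of 1240 in WNK2- Ctr. Of 4 markers of hypertrophic chondrocytes only RUNX2 was tested, COL10A1 and SPP1 being listed at 0, and their sum was 11.5 to 62.4. All libraries came from T/C-28a2 cells, so the markers are read as levels of genes and not as shares of cell types. In bulk RNA, fewer cells with a marker's RNA and less of that RNA per cell cannot be told apart.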

How the data were processed

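The authors deposited raw counts of reads per gene, with no normalization, for 24 poly(A) libraries. Per the submitters' processing notes the tools were FastQC 0.11.9, HISAT2 2.2.1, HTSeq 2.0.2 and DESeq2 1.38.3 on GRCh38, and the annotation release is not given in the sources used here. Of 62703 identifiers 42300 matched a symbol, and positions and exon lengths came from GENCODE 29. Groups follow the deposited labels.

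R 4.3.3 with edgeR 4.0.16 was used. The filterByExpr rule (minimum count 10, minimum total 15) chose the genes, TMM factors set the library sizes and the quasi-likelihood model had a mean for each of 6 groups. Benjamini-Hochberg adjustment was made in each of 12 contrasts, with 0.05 as threshold. Standard errors were obtained from each change and its F statistic. Normalized counts are counts over the effective library size, times its mean, 18363858. The test was checked on simulated counts.

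The members, gene lists, marker lists and tests were chosen with earlier results of these data known. Genes outside the members were named by rule: other MMPs and inhibitors, up to 3 called genes of each list with the largest change (mean log2 CPM not below 0), and the 2 nearest to each member. Some genes that this rule names are not reported here. The look at equal MMP3 and MMP9 counts was added after the values were seen. Likeness used log2 CPM with a prior count of 2.

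Alternatives were DESeq2 1.42.0, other scaling and filters, a fit of the compared groups alone, a replicate block, thinning to the smallest total, a GC and length correction (splines with 5 degrees of freedom; known for 96.3% of tested genes) and each library left out.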

Additional observations from a re-analysis of the deposited data

Results flagged for a closer look

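TIMP2 in WNK2- Ctr was marked because 1 library stood apart: replicate 1 held 6967 normalized counts and the other libraries 6230 to 6297. In all, 36 sets of a member in a group were examined, and chance marks about 1 in 20.

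The sorbitol response differed between backgrounds by a test of the difference itself for several members. Between WNK2- and WT cells the difference was 1.05 for MMP13 and 2.11 for MMP3 on the log2 scale. Between WNK2 trans and WT cells it was 1.92 for MMP13, 4.68 for MMP3, 2.65 for MMP9 and -1.15 for MMP14. Each rests on the libraries labelled WT Ctr, and the latter also on those labelled WNK2 trans Ctr, whose WNK2 reads go against their labels. Against the other isotonic group the log2 fold changes of WT Sor and WNK2 trans Sor were -0.068 and -0.035 for MMP13 and -0.12 and -0.35 for MMP14, and none of these passed. Those of MMP3 were 2.43 and 6.44 and those of MMP9 1.63 and 2.80, and all of these passed.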

How the results depend on the processing

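Of 72 tests of a member 47 passed, and 39 of these passed under each alternative in which they were tested, while 8 were lost under at least 1. There were 33 alternatives, of which 32 tested the MMP3 results that passed. Of the 25 that did not pass, 9 did under at least 1. The values are beside the results. Low counts limit MMP3 in the isotonic WT and transfected libraries: with at least 10 counts in every library it was not tested, and the members past the threshold fell from 2 to 1 for WT Sor against WNK2 trans Ctr and from 2 to 1 for the interaction of genotype and sorbitol.

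Changes of sign were seen in near-zero values that did not pass. With the GC and length correction MMP13 under sorbitol in WNK2- cells came to -0.092, MMP14 in WNK2- against WT under sorbitol to 0.14, TIMP2 in transfection under sorbitol to 0.054, and the genotype interactions of MMP14 and MMP2 to 0.081 and 0.16. MMP13 in WNK2 trans Sor against WT Ctr came to 0.029 with upper-quartile factors and 0.016 with at least 10 counts in every library. The genotype interaction of MMP2 came to 0.0075 with RLE factors, 0.011 with upper-quartile factors, 0.00019 in a fit of the compared groups and 0.0076 with DESeq2. The cause was not tested.

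With each library left out in turn, signs changed within these ranges: MMP13 under sorbitol in WNK2- cells -0.12 to 0.17, MMP14 in WNK2- against WT -0.054 to 0.17 in isotonic medium and -0.16 to 0.012 in sorbitol, TIMP2 in isotonic transfection -0.20 to 0.045, MMP13 in WT Sor against WNK2 trans Ctr -0.15 to 0.013 and in WNK2 trans Sor against WT Ctr -0.085 to 0.049. For the genotype interaction they were -0.11 to 0.037 for MMP2 and -0.059 to 0.18 for TIMP2, and for the transfection interaction -0.11 to 0.14 for TIMP2. The number of members past the threshold ran from 4 to 6 for sorbitol in WT cells (4 with all libraries), from 2 to 4 for isotonic transfection (3) and from 4 to 6 for WNK2- Ctr against WNK2 trans Ctr (6), and moved by at most 1 in the other 9 comparisons.

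The replicate numbers are not stated to pair samples. Same-numbered libraries of different groups, 60 pairs, had correlated deviations of -0.86 to 0.94 (median 0.11), and the 180 other pairs had a median of 0.0091. Of 24 libraries 12 matched best a library of their own number, a larger share than that of same-numbered pairs among all these pairs. With the number as a replicate block, the members past the threshold were 4 in place of 3 for isotonic transfection, the added 1 being MMP14, and the same count in the other 11 comparisons. All genes past the threshold were 3894 in place of 4008 for sorbitol in WT cells.

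Counts over all genes moved by more than 1.5 times under some alternatives. In a fit of the compared groups alone they were 747 in place of 2082 for isotonic transfection, 3018 in place of 6509 for WNK2 trans Sor against WT Ctr and 4824 in place of 2473 for sorbitol in WNK2- cells. With the GC and length correction they were 6084 in place of 4008 for sorbitol in WT cells, 4354 in place of 2473 in WNK2- cells, 5093 in place of 2499 for WT Sor against WNK2 trans Ctr, and 2307 in place of 1436 for the genotype interaction. The last was 944 without WNK2- Ctr replicate 2 and 849 without WNK2- Sor replicate 3.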
